A study of Homo sapiens with 12 samples.

Results

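The genes described here are *NFE2L2*, which encodes the transcription factor NRF2, 6 genes known as NRF2 targets (*HMOX1*, *NQO1*, *TXNRD1*, *SRXN1*, *ME1* and *OSGIN1*) and the ferritin genes *FTH1* and *FTL*, which store iron and are also listed among NRF2 targets. They are 9 of 43236 gene symbols in the count files and were picked by symbol, with earlier results of these data known. Their counts beside all tested genes are therefore a description. All 9 were among the 15979 symbols with enough counts to be tested. The study measured polyA RNA by strand-specific RNA sequencing in the osteosarcoma cell line HOS-MNNG, also written MNNG/HOS, a chemically transformed derivative of the HOS line. Cells received the solvent DMSO or 300 nM NXP800, a small molecule under clinical study, for 6 h or 24 h, and each of the 4 groups had 3 replicates, so 12 libraries were sequenced. The study looked at NXP800 in connection with GCN2, a kinase that starts the integrated stress response, and the question here is how the NRF2 and ferritin genes differed between NXP800 and DMSO at each time point. The labels do not say whether replicates came from separate cultures, and the study's methods speak of independent experiments only for its results in general, so the p-values measure the spread between these libraries, which may be partly technical, and the line is a single model.

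In unstressed cells the adaptor KEAP1 holds NRF2 and passes it to a CUL3 and RBX1 ubiquitin ligase, so that NRF2 protein is degraded. Oxidants and electrophiles modify KEAP1, NRF2 accumulates, pairs with a small MAF protein and binds antioxidant response elements, while BACH1 occupies the same elements as a repressor. Ferritin is a shell of heavy chains (*FTH1*), which oxidise iron, and light chains (*FTL*), which help to mineralise it, and its translation is held back by iron regulatory proteins that bind a hairpin near the start of both transcripts. RNA counts bear on transcript levels only, not on NRF2 protein or on ferritin protein.

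Each library held between 30810614 and 31947656 counts on genes, so counting error was small except for low genes. Read pairs on no annotated gene made up 6.66 to 8.14% of a library at 6 h and 2.73 to 3.67% at 24 h, and pairs aligned to several places 1.86 to 1.99% and 2.96 to 3.37%, so time and library set cannot be told apart when DMSO levels at 6 h and 24 h are set side by side. Of 8 osteoblast lineage and matrix markers, *RUNX2*, *COL1A1* and *SPARC* had enough counts to be tested, while *COL1A2* reached at most 12 counts in a library, *ALPL* 7, *SP7* 1, *IBSP* 1 and *BGLAP* 2, so most defining osteoblast markers were at or near 0. The summed level of the 8 markers was 718 to 899 counts per 1000000 counts (CPM) with DMSO and 461 to 565 with NXP800 at 6 h, and 875 to 1054 against 380 to 461 at 24 h. The tested markers did not move together. *RUNX2* was higher with NXP800 (log2 fold change 0.71 at 6 h and 0.36 at 24 h). *COL1A1* (-0.50 and -0.76) and *SPARC* (-0.79 and -2.02) were lower. Of 3 markers of other cell types, *PTPRC* reached at most 5 counts and *PECAM1* 29, and their sum with *EPCAM* was 6.29 to 7.41 CPM with DMSO and 6.60 to 7.53 with NXP800 at 6 h, and 6.18 to 6.32 against 10.3 to 10.5 at 24 h. *EPCAM* itself reached 325 counts and was higher with NXP800 at 24 h (log2 fold change 0.81), while *PECAM1* was lower at 6 h (-1.17). The part of these marker levels in the results was not tested, and in bulk RNA fewer cells of a type and less RNA per cell cannot be told apart.

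At 24 h, replicate 1 stood apart from replicates 2 and 3 for many of these genes, in the DMSO group and in the NXP800 group alike. Its level lay over 0.25 log2 units above the mean of the other two replicates in both groups for 6 of the 9 genes, against 3.89% of all tested genes. Over all tested genes it lay that far above in both groups for 621 and that far below for 1172. Replicate 1 was singled out after its values had been seen, so these counts are a description. *OSGIN1* was higher by 0.95 log2 units with DMSO and by 1.00 with NXP800, *NQO1* by 0.78 and 1.00, and *FTL* by 0.63 and 0.52. *FTH1* was higher by 0.50 and 0.65, *TXNRD1* by 0.40 and 0.71, and *SRXN1* by 0.36 and 0.68. *NFE2L2* itself (0.23 and 0.08), *HMOX1* (-0.11 and 0.19) and *ME1* (0.11 and 0.27) did not pass that limit in both groups. Of 26 other tested NRF2 targets 10 did, among them *GCLC* and *SLC7A11*, while 0 of 14 NRF2 regulators and 0 of 20 iron genes did. At 6 h, replicate 2 lay below its group mean in both groups for the same 6 of the 9 genes. *OSGIN1* deviated most there, by -0.33 log2 units with DMSO and -0.29 with NXP800. That too is a description made after the values had been seen. Across all genes, libraries that share a replicate number at a time point deviated from their groups in part together (r of 0.159 to 0.329). Values with the replicate number as a block, that is, NXP800 against DMSO within each number, therefore stand beside the results of the 9 genes wherever the block changed their call. What a shared number means is not given in the labels. The cause of the difference of replicate 1 was not tested.

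**Figure D1:**
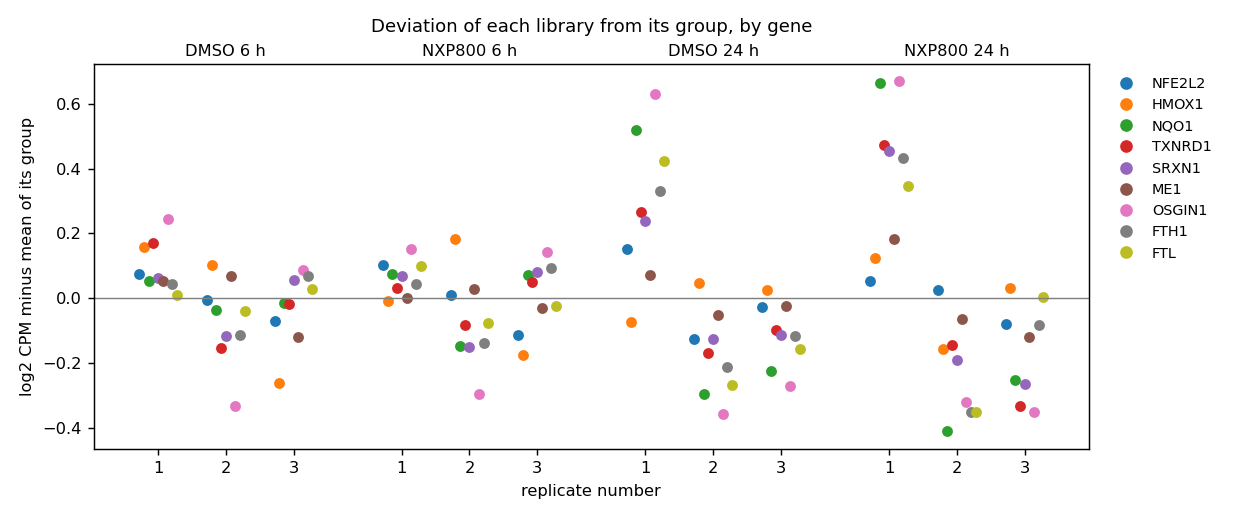
Deviation of each library from the mean of its group, in log2 CPM (vertical axis), for the 9 genes (colours) by replicate number within each of the 4 groups (horizontal axis). Replicate 1 of both 24 h groups lies high for 6 of the genes, with *OSGIN1* and *NQO1* at the top. For the same genes replicate 2 of both 6 h groups lies below its group mean, with *OSGIN1* lowest.

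Adjusted p-values below are those of the quasi-likelihood test in edgeR, Benjamini-Hochberg adjusted over all tested genes, written "edgeR adjusted p", and a gene passed the test at an adjusted p below 0.05. At 6 h of NXP800, 4 of the 9 genes rose (*NFE2L2*, *HMOX1*, *TXNRD1* and *OSGIN1*), between 1.65-fold and 1.91-fold, where 52.8% of all tested genes passed, 25.0% as a rise and 27.8% as a fall. By the same test 0 of the 9 fell, also at an unadjusted p below 0.05 and by DESeq2, and with the replicate block 7 passed, 5 higher and 2 lower, against 62.3% of all tested genes, 28.9% higher and 33.4% lower. At 24 h, 5 rose (*NFE2L2*, *HMOX1*, *SRXN1*, *OSGIN1* and *FTL*), where 56.0% of all tested genes passed, 27.5% as a rise and 28.6% as a fall with TMM scaling. Again 0 fell by this test, at an unadjusted p below 0.05 and by DESeq2, and with the block 8 passed, 7 higher and 1 lower, against 65.2% of all tested genes, 32.0% higher and 33.1% lower. *NFE2L2*, *HMOX1* and *OSGIN1* rose at both times, 3 of 9, as did 16.5% of all tested genes. The median log2 fold change of the 9 was 0.26 at 6 h and 0.40 at 24 h, beside -0.05 and -0.00 for all tested genes. At 6 h the NXP800 and DMSO libraries did not overlap for 7 of the 9 genes, 5 with NXP800 higher and 2 with NXP800 lower, and 62.0% of all tested genes did not overlap there, 29.3% with NXP800 higher and 32.7% lower. At 24 h they did not overlap for 3 genes, all with NXP800 higher, against 59.1% of all tested genes, 29.0% with NXP800 higher and 30.1% lower. The difference of the 24 h and 6 h responses passed for 3 of the 9 genes (*NFE2L2*, *HMOX1* and *FTL*), where 25.8% of all tested genes passed. With the block it passed for 6, adding *TXNRD1*, *OSGIN1* and *FTH1*, where 39.3% of all tested genes passed.

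*NFE2L2* (chr2:177230303-177264727, minus strand, GRCh38.p14, as for all positions below) is the gene at the head of the pathway. GENCODE models, among them *HNRNPA3* (510 to 748 CPM) and *AGPS* (73.5 to 113 CPM), lie over 24.8% of its exon bases on the opposite strand. Another model lies over 13.6% on the same strand. The strand setting of the counting is not given in the sources used here, and the part of this overlap in the counts was not tested. The *NFE2L2* level at 6 h was 117, 110 and 106 CPM in the DMSO libraries and 227, 213 and 195 CPM with NXP800. After 24 h the level was 107, 88.0 and 94.3 CPM with DMSO and 151, 148 and 137 CPM with NXP800. Every NXP800 library lay above every DMSO library at both times, and the rise was larger at 6 h. The log2 fold change was 0.93 ± 0.08 (SE) at 6 h, a rise of 1.91-fold (edgeR adjusted p = 6.63e-08), and 0.59 ± 0.08 at 24 h, a rise of 1.51-fold (edgeR adjusted p = 7.33e-06). The response at 24 h was smaller than at 6 h by 0.34 ± 0.11 log2 units (edgeR adjusted p = 0.0299), the negative one of the 3 differences that passed. That difference missed the threshold without replicate 2 or 3 of DMSO 6 h, 1 or 2 of NXP800 6 h, 1 of DMSO 24 h or 3 of NXP800 24 h (edgeR adjusted p up to 0.0882), and with scaling by library size only (-0.27, edgeR adjusted p = 0.0749).

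*HMOX1* (chr22:35381096-35394207, plus strand) encodes heme oxygenase 1, which opens heme to biliverdin and releases its iron, and it is repressed by BACH1. It was a low gene, with at most 473 counts in a library. With DMSO it stood at 8.59, 8.26 and 6.41 CPM at 6 h and at 4.38, 4.78 and 4.70 CPM at 24 h. With NXP800 it stood at 12.7, 14.5 and 11.3 CPM at 6 h and at 13.0, 10.7 and 12.2 CPM at 24 h. The NXP800 levels at both times were close to each other, while the DMSO level was lower at 24 h, and the treated libraries lay above the control libraries at both times. On the log2 scale the change was 0.72 ± 0.13 at 6 h (1.65-fold, edgeR adjusted p = 0.000161) and 1.38 ± 0.13 at 24 h (2.59-fold, edgeR adjusted p = 3.04e-07). *HMOX1* and *OSGIN1* were among the 6.73% of tested genes that rose over 2-fold at 24 h. The response was larger at 24 h by 0.65 ± 0.18 log2 units (edgeR adjusted p = 0.0164), a difference that missed the threshold without replicate 1 of both 24 h groups (0.55, edgeR adjusted p = 0.0746).

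*OSGIN1* (chr16:83953240-83966332, plus strand), the oxidative stress induced growth inhibitor, rose at both times. At 6 h it measured 21.3, 14.3 and 19.1 CPM with DMSO and 34.9, 25.6 and 34.7 CPM with NXP800. The 24 h libraries measured 13.3, 6.66 and 7.07 CPM with DMSO and 38.0, 19.1 and 18.7 CPM with NXP800. The groups did not overlap at either time, although replicate 1 of each 24 h group was far above its partners. Within the same replicate number, NXP800 was 2.86, 2.87 and 2.64 times DMSO at 24 h, so the ratios lay close together where the levels did not. Its log2 fold change was 0.80 ± 0.26 at 6 h (1.74-fold, edgeR adjusted p = 0.0167) and 1.49 ± 0.28 at 24 h (2.80-fold, edgeR adjusted p = 0.000258), with 1.07 to 1.88 at 24 h when 1 library was left out. The 6 h rise missed the threshold without replicate 2 of DMSO 6 h (0.65, edgeR adjusted p = 0.0794), without replicate 1 of NXP800 6 h (0.73, edgeR adjusted p = 0.0576), and by DESeq2's Wald test (0.82, adjusted p = 0.0622). The larger response at 24 h, by 0.69 ± 0.38 log2 units, did not pass (edgeR adjusted p = 0.202), and it passed with the replicate block (0.68, edgeR adjusted p = 2.45e-05). *MLYCD*, which ranged from 7.835 to 15.35 CPM, lies over 8.22% of the exon bases of *OSGIN1* on the same strand.

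*TXNRD1* (chr12:104215779-104350307, plus strand) encodes the cytosolic thioredoxin reductase, which uses NADPH to recycle thioredoxin. It measured 836, 668 and 733 CPM with DMSO at 6 h and 1354, 1251 and 1370 CPM with NXP800, with a wide gap between the groups. The rise was 0.83 ± 0.16 on the log2 scale, or 1.78-fold (edgeR adjusted p = 0.000395). At 24 h it measured 492, 364 and 382 CPM with DMSO and 708, 461 and 405 CPM with NXP800, and the groups overlapped, since NXP800 replicates 2 and 3 lay below DMSO replicate 1. The log2 fold change there was 0.35 ± 0.16 (edgeR adjusted p = 0.0764), and it passed with the replicate block (0.32, edgeR adjusted p = 0.00056) and with scaling by library size only (0.43, edgeR adjusted p = 0.0258). It also passed without replicate 1 of DMSO 24 h (0.49) or replicate 2 or 3 of NXP800 24 h (0.46 and 0.50), while without replicate 1 of NXP800 24 h it was 0.070 (edgeR adjusted p = 0.647) and without replicate 1 of both 24 h groups 0.22 (edgeR adjusted p = 0.0883). The response at 24 h was smaller by 0.48 ± 0.23 log2 units (edgeR adjusted p = 0.130), and this difference passed with the block (-0.52, edgeR adjusted p = 0.000369) and without replicate 1 of both 24 h groups (-0.61, edgeR adjusted p = 0.00377).

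*SRXN1* (chr20:646615-653200, minus strand) encodes sulfiredoxin, which repairs overoxidised peroxiredoxins, and GENCODE models place another transcript over 90.7% of its exon bases on the same strand, so its counts can depend on the annotation. At 6 h it measured 143, 126 and 142 CPM with DMSO and 171, 147 and 173 CPM with NXP800. The groups did not overlap, yet the log2 fold change of 0.26 ± 0.15 did not pass (edgeR adjusted p = 0.157), and it passed with the replicate block (0.25, edgeR adjusted p = 0.000903). The 24 h levels were 116, 90.1 and 90.8 CPM with DMSO and 175, 112 and 106 CPM with NXP800, and the groups overlapped because DMSO replicate 1 lay above NXP800 replicates 2 and 3. The rise of 0.40 ± 0.15 passed (edgeR adjusted p = 0.0290). It missed the threshold without replicate 2 or 3 of DMSO 24 h (0.34 each), without replicate 1 of NXP800 24 h (0.14, edgeR adjusted p = 0.282) and by DESeq2's Wald test (0.41, adjusted p = 0.0957). The difference between the responses was 0.15 ± 0.21 log2 units (edgeR adjusted p = 0.650).

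*NQO1* (chr16:69709401-69726560, minus strand), a quinone reductase and a common readout of NRF2 activity, did not rise. At 6 h it measured 642, 604 and 613 CPM with DMSO and 521, 448 and 521 CPM with NXP800, and every treated library lay below every control library. This log2 fold change of -0.32 ± 0.23 (edgeR adjusted p = 0.252) did not pass, and it passed with the replicate block as a fall (-0.32, edgeR adjusted p = 7.54e-05). At 24 h it measured 853, 485 and 510 CPM with DMSO and 700, 332 and 370 CPM with NXP800, so the groups overlapped through their first replicates. Within a replicate number, however, NXP800 was 0.820, 0.685 and 0.727 times DMSO, below 1 in 3 of 3 pairs. Over all 6 libraries the log2 fold change was -0.40 ± 0.23 (edgeR adjusted p = 0.148). It passed as a fall with the block (-0.43, edgeR adjusted p = 2.79e-06), without replicate 1 of both 24 h groups (-0.50, edgeR adjusted p = 0.000264) and without replicate 1 of NXP800 24 h alone (-0.81, edgeR adjusted p = 0.00130). Without replicate 1 of DMSO 24 h alone it shrank to -0.090 (edgeR adjusted p = 0.739), and without replicate 2 or 3 of NXP800 24 h it was -0.18 and -0.26. The difference between the responses was -0.08 ± 0.32 (edgeR adjusted p = 0.891). A GENCODE model lies over 19.4% of the exon bases of *NQO1* on the opposite strand.

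*ME1* (chr6:83210402-83431051, minus strand) encodes malic enzyme 1, a cytosolic source of NADPH, and showed the smallest fold changes of the 9 genes. At 6 h it measured 103, 104 and 91.6 CPM with DMSO and 103, 105 and 101 CPM with NXP800. Its 24 h levels were 87.3, 80.1 and 81.6 CPM with DMSO and 91.1, 76.8 and 73.9 CPM with NXP800. The groups overlapped at both times, with log2 fold changes of 0.05 ± 0.08 (edgeR adjusted p = 0.630) and -0.04 ± 0.08 (edgeR adjusted p = 0.664). The sign at 24 h turned with scaling by library size only (0.05), and neither value passed with the block.

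**Figure D2:**
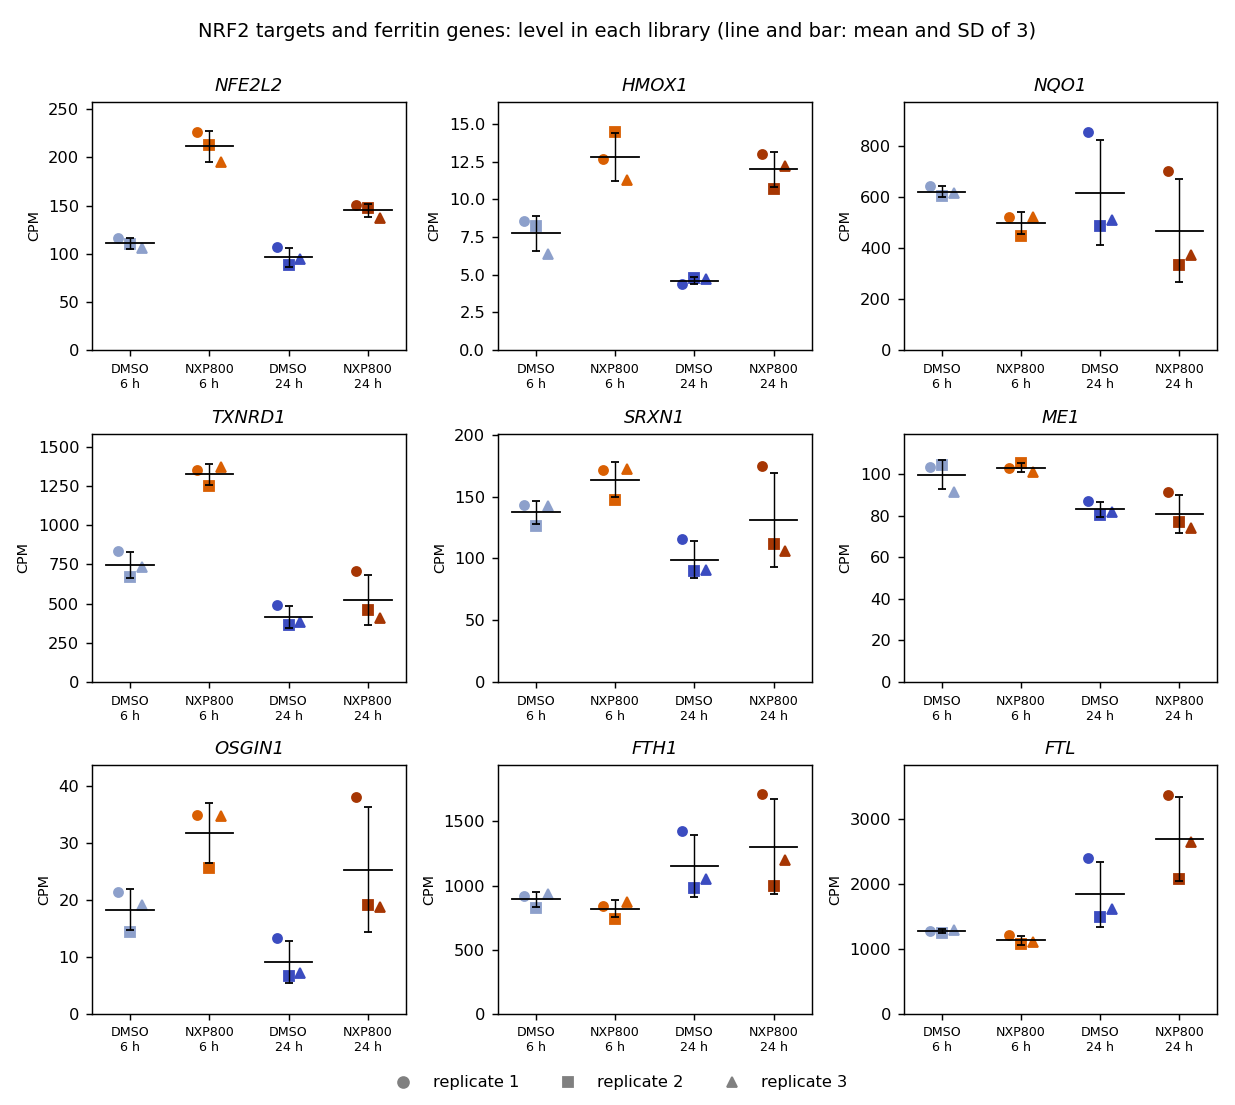
Level of each of the 9 genes in CPM (vertical axis, from 0) in every library of the 4 groups (horizontal axis), with marker shape for the replicate number and a line and bar for the mean and SD of 3. *NFE2L2*, *HMOX1* and *OSGIN1* lie higher with NXP800 at both times, *TXNRD1* at 6 h, and the circles of replicate 1 lie high in both 24 h groups for 6 of the genes.

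**Figure D3:**
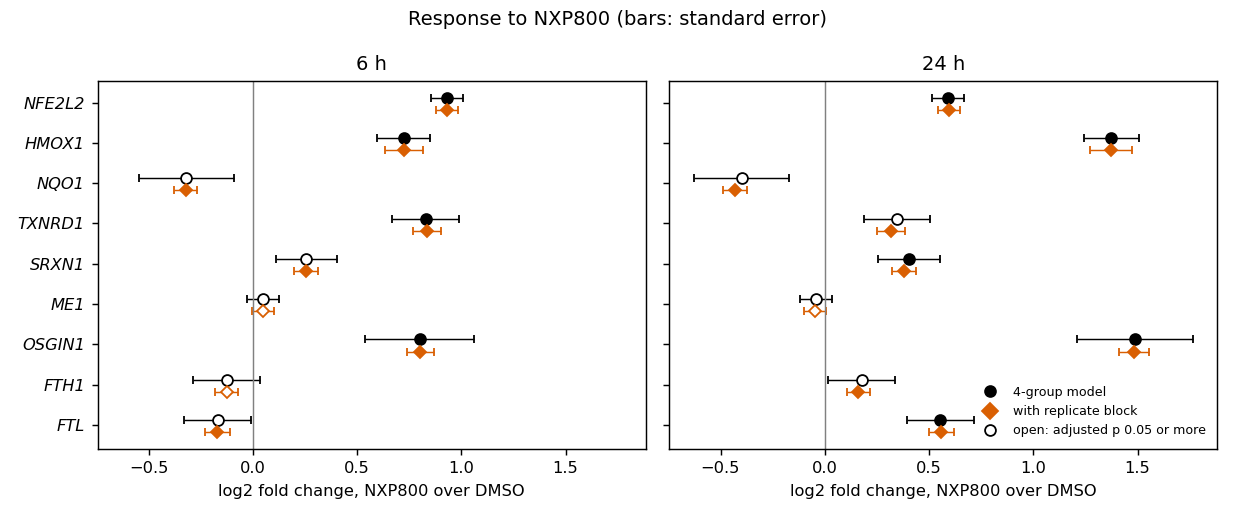
Log2 fold change of NXP800 over DMSO (horizontal axis) with its standard error for the 9 genes at 6 h (left) and 24 h (right), from the 4-group model (circles) and with a block for the replicate number (diamonds). Open symbols did not pass an adjusted p of 0.05. The estimates of both fits lie close together, and the bars are shorter with the block.

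*TXNRD1* and *ME1* are the members whose searched promoter windows held the core of an antioxidant response element. *TXNRD1* rose at 6 h, while *ME1* did not pass at either time. The search used RefSeq promoter windows of GRCh38.p14, from 250 bases before to 50 after a start, for TGACNNNGC on both strands, and 13.3% of 35116 windows of 300 bases held a match. Windows were found for 7 of the 9 genes, not for *HMOX1* or *FTH1*, and the matches are given as letters with no claim of binding. Sequence outside these windows was not searched, so a gene without a match may hold an element elsewhere. Capitals mark the core, and sequences read along the gene's strand.
TXNRD1, 99 bases before the start, chr12:104215672-104215696: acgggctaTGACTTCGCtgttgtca
TXNRD1, 8 bases before the start, core on the opposite strand, chr12:104215763-104215787: gtccttcgGCTCCGTCAgttcccac
TXNRD1, 102 bases before a downstream start, core on the opposite strand, chr12:104286922-104286946: ggatttctGCTTTGTCAttctgact
ME1, 137 bases before the start, chr6:83431172-83431196: tcctgccaTGACTCAGCgcttctcg
ME1, 11 bases after the start, core on the opposite strand, chr6:83431024-83431048: tgcagtcaGCACCGTCAccccagca
The *ME1* match upstream of its start also holds TGACTCA, the AP-1 element. A second search for TGATGNAA, the core of the element bound by C/EBP and ATF dimers, on both strands found no match in the windows of the members, where 3.62% of all windows held one, and it says only that these letters are not in these windows.

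The ferritin genes carry the same kind of control letters at the start of their transcripts, and these are shown because both chains, the transferrin receptor gene *TFRC* and the iron exporter gene *SLC40A1* meet in the iron results below. The search took the loop CAGTGN with 5 paired bases on each side, wobble pairs allowed, and an unpaired C before the upper stem. In the GENCODE MANE Select transcripts, 256 of 19061 (1.34%) held a match and 19 (0.0997%) held one before the coding sequence. Capitals mark the loop, which is given with its position in the transcript.
FTH1, bases 45 to 50, before the coding sequence: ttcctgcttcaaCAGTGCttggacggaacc
FTL, bases 39 to 44, before the coding sequence: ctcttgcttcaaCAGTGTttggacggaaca
SLC40A1, bases 110 to 115, before the coding sequence: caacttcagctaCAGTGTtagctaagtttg
TFRC, bases 3301 to 3306, after the coding sequence: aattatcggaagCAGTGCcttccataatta
TFRC, bases 3705 to 3710, after the coding sequence: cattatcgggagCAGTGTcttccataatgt
TFRC, bases 3770 to 3775, after the coding sequence: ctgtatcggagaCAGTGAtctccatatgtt
TFRC, bases 3817 to 3822, after the coding sequence: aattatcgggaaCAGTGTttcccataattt
A hairpin of this kind before the coding sequence is known to block translation when an iron regulatory protein binds it, and hairpins after the coding sequence of *TFRC* are known to protect its RNA from decay.

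*FTL* (chr19:48965309-48966879, plus strand) rose at 24 h and not at 6 h. At 6 h it measured 1278, 1234 and 1293 CPM with DMSO and 1207, 1068 and 1110 CPM with NXP800, and every treated library lay below every control library. The log2 fold change was -0.17 ± 0.16 (edgeR adjusted p = 0.402), and it passed with the replicate block as a fall (-0.17, edgeR adjusted p = 0.0179). At 24 h it measured 2405, 1491 and 1609 CPM with DMSO and 3363, 2074 and 2650 CPM with NXP800, and NXP800 replicate 2 lay below DMSO replicate 1. Within a replicate number NXP800 was 1.40, 1.39 and 1.65 times DMSO, so the rise was present in 3 of 3 pairs. The rise was 0.55 ± 0.16 log2 units, or 1.47-fold (edgeR adjusted p = 0.00804), and it was 0.61 without replicate 1 of both 24 h groups (edgeR adjusted p = 0.000226). It missed the threshold without replicate 1 of NXP800 24 h alone (0.36, edgeR adjusted p = 0.0583). The response was higher at 24 h than at 6 h by 0.72 ± 0.23 log2 units (edgeR adjusted p = 0.0286, and 2.22e-06 with the block). That difference missed the threshold in 7 of 12 fits with 1 library left out, namely without replicate 1 or 3 of DMSO 6 h, 2 or 3 of NXP800 6 h, 2 or 3 of DMSO 24 h or 1 of NXP800 24 h (edgeR adjusted p up to 0.0752), and by DESeq2's Wald test (0.72, adjusted p = 0.0771).

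*FTH1* (chr11:61964285-61967634, minus strand) did not pass the test at either time. At 6 h it measured 919, 823 and 933 CPM with DMSO and 842, 742 and 870 CPM with NXP800. By 24 h the level was 1427, 979 and 1047 CPM with DMSO and 1714, 995 and 1199 CPM with NXP800. The groups overlapped at both times. The log2 fold change was -0.13 ± 0.16 at 6 h (edgeR adjusted p = 0.535) and 0.18 ± 0.16 at 24 h (edgeR adjusted p = 0.361). With the block the 24 h value passed as a rise (0.16, edgeR adjusted p = 0.0145), as did the difference of the responses (0.29, edgeR adjusted p = 0.00622), which was 0.30 ± 0.23 without it (edgeR adjusted p = 0.358). The sign at 24 h turned without replicate 1 of NXP800 24 h (-0.07). *BEST1* lies over 63.2% of the exon bases of *FTH1* on the opposite strand and ranged from 0.908 to 42.1 CPM, and the strand setting of the counting is not given in the sources used here. Both ferritin genes have pseudogenes that can share their reads. Of these the files list *FTH1P3*, at no more than 0.0195% of the *FTH1* count, and *FTLP10*, with 0 counts.

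The ratio of *FTH1* to *FTL* counts within a library, which does not depend on library scaling, was 0.719, 0.667 and 0.722 with DMSO at 6 h and 0.697, 0.694 and 0.784 with NXP800. These overlapped, and the mean log2 ratio differed by 0.04 (exact two-sided permutation p = 0.6, n = 3 and 3). At 24 h the ratio was 0.594, 0.657 and 0.651 with DMSO and 0.510, 0.480 and 0.452 with NXP800. Here every NXP800 library lay below every DMSO library, replicate 1 included, with means of 0.634 ± 0.035 and 0.481 ± 0.029 (SD, n = 3). The mean log2 ratio differed by -0.40 (exact two-sided permutation p = 0.1, the smallest that 3 against 3 allows). Ferritin transcripts together took 0.189 to 0.233% of the counts of a library at 6 h and 0.233 to 0.487% at 24 h.

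**Figure D4:**
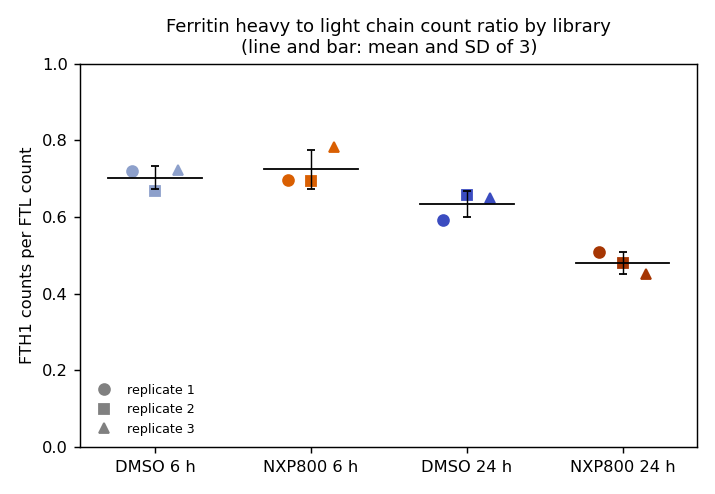
Counts of *FTH1* per count of *FTL* (vertical axis, from 0) in each library of the 4 groups (horizontal axis), with marker shape for the replicate number and a line and bar for the mean and SD of 3. The NXP800 24 h libraries, between 0.452 and 0.510, lie below all other libraries.

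Per kilobase of the MANE Select transcript, which allows levels of different genes to be compared, the order of the DMSO 6 h means was *FTL* (1456 CPM per kb), *FTH1* (742), *NQO1* (246), *TXNRD1* (193), *SRXN1* (54.2), *NFE2L2* (45.3), *ME1* (29.9), *OSGIN1* (9.49) and *HMOX1* (4.99). The ranges of neighbours in this order did not overlap. In the NXP800 6 h group *TXNRD1* (343 CPM per kb) stood above *NQO1* (197), the reverse of their order with DMSO, and *NFE2L2* (86.5) above *SRXN1* (64.8). At 24 h with NXP800, *FTL* reached 3095 ± 741 CPM per kb and *FTH1* 1083 ± 308 (SD, n = 3), while *HMOX1* remained the lowest at 7.72 ± 0.76. The ranges of *NQO1* (132 to 278) and *TXNRD1* (105 to 183) overlapped in that group, as did those of *SRXN1* (42.0 to 69.2) and *NFE2L2* (56.2 to 61.6).

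The genes around NRF2 moved in both directions. Of 14 regulators, all tested, 7 rose and 5 fell at 6 h (median log2 fold change 0.12), and 8 rose and 3 fell at 24 h (median 0.44), beside medians of -0.05 and -0.00 over all tested genes. Of all tested genes, 25.0% rose and 27.8% fell at 6 h, and 27.5% rose and 28.6% fell at 24 h. The small MAF partners *MAFF*, *MAFK* and *MAFG* rose at both times, *MAFF* by 2.39 ± 0.12 log2 units at 6 h (edgeR adjusted p = 2.45e-10) and by 0.96 ± 0.12 at 24 h (edgeR adjusted p = 4.31e-06). *MAFF* measured 19.6, 18.7 and 21.4 CPM with DMSO and 113, 112 and 86.7 CPM with NXP800 at 6 h. *MAFK* rose by 1.64 and 0.90 log2 units and *MAFG* by 0.98 and 0.73. The repressor gene *BACH1* rose as well, by 1.22 ± 0.09 at 6 h and 0.71 ± 0.09 at 24 h, from 30.8, 29.8 and 28.7 CPM to 75.0, 72.0 and 60.7 CPM at 6 h. *SQSTM1*, which encodes p62, a protein that binds KEAP1 and is itself an NRF2 target, rose by 0.61 ± 0.09 and 1.35 ± 0.09 log2 units. Among the ligase genes *KEAP1* fell by 0.35 and 0.27 and *RBX1* by 0.50 and 0.49, while *CUL3* fell by 0.31 at 6 h and was at -0.10 at 24 h (edgeR adjusted p = 0.217). *NFE2L3*, a relative of *NFE2L2*, fell by 1.11 ± 0.12 log2 units at 24 h only by this test, and its responses differed between the times (-1.08, edgeR adjusted p = 0.000143).

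Among other NRF2 targets both directions were present. Of 29 listed genes 26 were tested. At 6 h 4 rose and 12 fell (median log2 fold change -0.40), and at 24 h 5 rose and 11 fell (median -0.26). These were 15.4% and 46.2% of the tested targets at 6 h and 19.2% and 42.3% at 24 h, where 25.0% and 27.8% of all tested genes rose and fell at 6 h and 27.5% and 28.6% at 24 h, with medians of -0.05 and -0.00. With the replicate block 5 rose and 20 fell at 6 h, against 28.9% and 33.4% of all tested genes, and 7 rose and 14 fell at 24 h, against 32.0% and 33.1%. Of the 4 tested genes of glutathione and cystine supply, 3 rose and 1 fell at 6 h, and 2 rose and 1 fell at 24 h. Of the 2 thioredoxin genes 2 fell at 6 h and 1 at 24 h. *SLC7A11*, the cystine transporter, measured 205, 149 and 192 CPM with DMSO and 436, 394 and 462 CPM with NXP800 at 6 h. It rose by 1.24 ± 0.22 log2 units there and by 1.17 ± 0.23 at 24 h (edgeR adjusted p = 0.000205 and 0.000343). *GCLC*, the catalytic subunit of glutamate-cysteine ligase, rose by 0.80 and 0.85, and its modifier subunit *GCLM* by 0.38 at 6 h, with 0.18 at 24 h (edgeR adjusted p = 0.254). *CBR3* fell by 1.08 and 1.41 log2 units and *CBR1* by 0.77 and 0.40, both carbonyl reductases, and the peroxiredoxin *PRDX1* fell by 0.56 and 0.74. Of genes of NADPH supply, *PGD* fell by 0.37 and 0.73, *TKT* by 0.44 and 0.74 and *IDH1* by 0.51 and 0.29. *TALDO1*, of the same group, fell by 0.44 at 24 h and was at -0.26 at 6 h (edgeR adjusted p = 0.110). Of the heme genes, *BLVRB*, a biliverdin reductase, rose by 0.82 at 24 h (at 6 h 0.18, which passed with the block, edgeR adjusted p = 0.0468), the porphyrin transporter *ABCB6* fell by 0.49 and 0.89, and the heme transporter *SLC48A1* fell by 0.67 at 6 h and rose by 0.69 at 24 h. Replicate 1 of both 24 h groups lay high for *SLC7A11* and *GCLC*, as it did for *OSGIN1*.

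Iron genes other than ferritin moved in both directions as well. Of 23 listed genes 20 were tested, of which 2 rose and 10 fell at 6 h (median log2 fold change -0.20), and 3 rose and 9 fell at 24 h (median -0.14). These counts of 20 stand beside 25.0% higher and 27.8% lower of all tested genes at 6 h (median -0.05), and 27.5% and 28.6% at 24 h (median -0.00). With the replicate block 2 rose and 12 fell at 6 h, against 28.9% and 33.4% of all tested genes. At 24 h with the block 3 rose and 11 fell, against 32.0% and 33.1%. *TFRC*, through which cells take up transferrin iron, measured 851, 862 and 1006 CPM with DMSO and 458, 388 and 425 CPM with NXP800 at 24 h, a clear separation. It fell by 1.10 ± 0.08 log2 units (edgeR adjusted p = 1.19e-08), against a fall by 0.25 ± 0.08 at 6 h (edgeR adjusted p = 0.0152), and the responses differed by -0.85 ± 0.11 (edgeR adjusted p = 5.99e-05). The opposite signs of *FTL* and *TFRC* at 24 h were values of the same libraries, and no test of their relation was made. *SLC40A1*, the iron exporter, was very low, with at most 35 counts in a library, and fell by 1.86 ± 0.32 and 1.03 ± 0.31. *HFE*, a partner of the transferrin receptor, fell by 1.51 and 2.06, *STEAP3*, an endosomal iron reductase, by 0.83 and 0.42, the metal transporter *SLC39A8* by 0.65 and 0.58, and the heme exporter *FLVCR1* by 0.61 and 0.86. *SLC39A14*, an importer of iron not bound to transferrin, rose by 0.67 and 0.40, and *NCOA4*, which carries ferritin to lysosomes, by 0.27 and 0.15. *HMOX2*, the constitutive heme oxygenase, rose by 0.28 at 24 h, and its 6 h value of -0.18 (edgeR adjusted p = 0.0683) passed as a fall with the block (edgeR adjusted p = 0.0142). Of the genes of the iron regulatory proteins, *ACO1* fell by 0.64 ± 0.09 at 24 h and was at 0.06 at 6 h (edgeR adjusted p = 0.609), and *IREB2* was at 0.12 and -0.08 (edgeR adjusted p = 0.265 and 0.472).

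**Figure D5:**
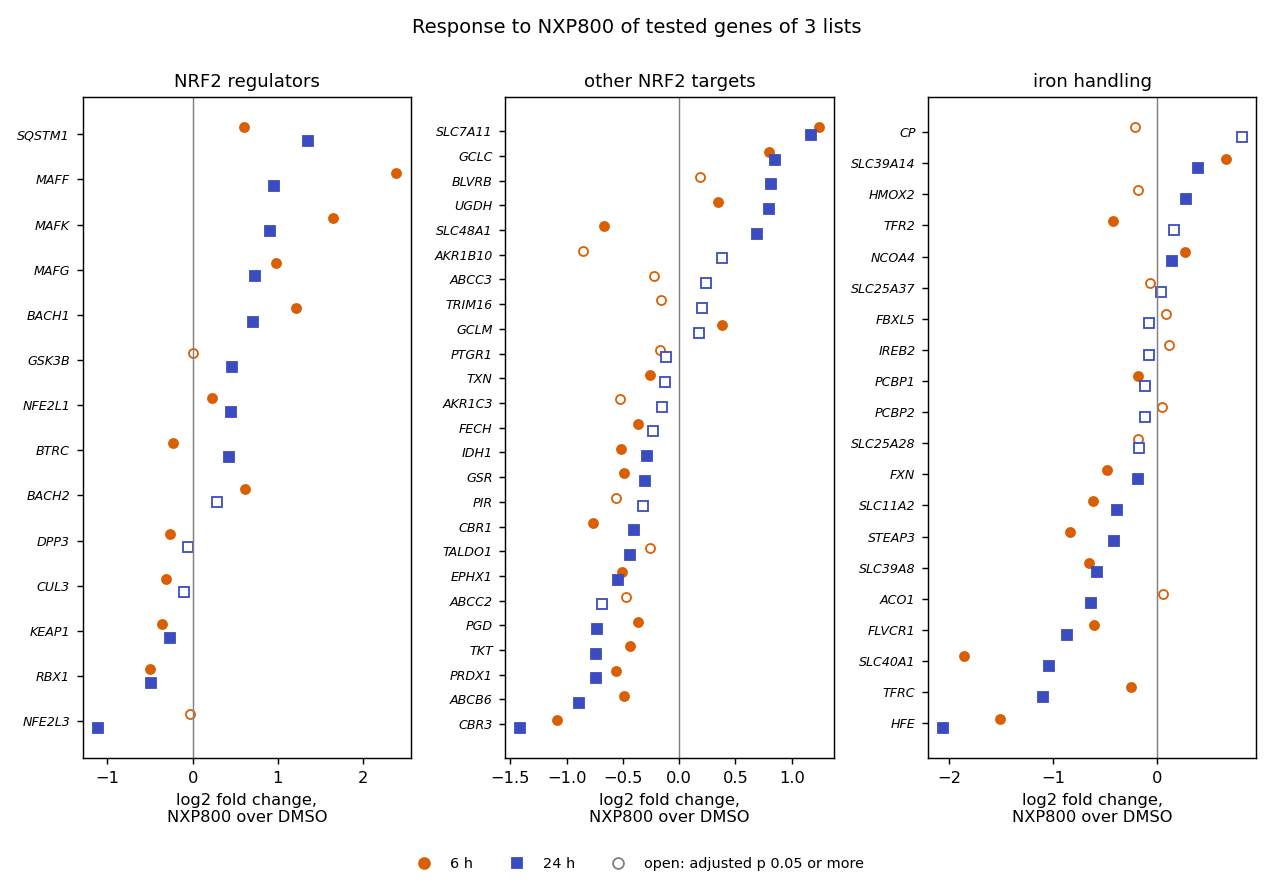
Log2 fold change of NXP800 over DMSO (horizontal axis) for tested genes of 3 lists (rows of points: NRF2 regulators, other NRF2 targets, iron genes) at 6 h (circles) and 24 h (squares), with open symbols for an adjusted p of 0.05 or more. *MAFF* lies farthest right among the regulators at 2.39, *SLC7A11* among the other targets at 1.24, and *HFE* farthest left among the iron genes at -2.06.

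The genes whose levels over the 12 libraries were most like those of 4 members were found as the smallest root mean square difference of centred log2 CPM among 11885 genes. For *NFE2L2* they were *ZNF772* (0.07), *GNA13* (0.07) and *HRH1* (0.09 log2 units). *HMOX1* was closest to *BMS1P23* (0.12), *PPP3CB-AS1* (0.14) and *SQSTM1* (0.15). *FTH1* was closest to *PPDPF* (0.13), *LINC02987* (0.14) and *RUNX3* (0.15), and *FTL* to *SH3BGRL3* (0.16), *GRIN2D* (0.19) and *TWIST2* (0.19). The ferritin genes were thus not among each other's 3 nearest, and *NFE2L2* had none of the other members among its own. Outside these 4 members, *OSGIN1* had *SLC7A11* (0.33) and *GCLC* (0.34) among its 3 nearest, and *NQO1* had *PTGR1* (0.15) and *TALDO1* (0.18). All of these are on the list of other NRF2 targets, while *TXNRD1*, *SRXN1* and *ME1* had no gene of that list among their nearest. These distances are a description over libraries that share treatment and time.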

How the data were processed

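Per the labels and the study's methods, the authors trimmed reads with fastp 0.20.1, aligned them to hg38 with STAR 2.7.5a and counted them on RefSeq genes (GRCh38.p14) with HTSeq 0.12.4. What was deposited are raw counts for each gene, not normalized. Strand setting and counting mode are not given in the sources used here. Counter entries without a gene name entered neither library sizes nor tests: 2.73 to 8.14% of a library lay on no gene, 2.10 to 2.43% were ambiguous and 1.86 to 3.37% aligned to several places. Replicates differed by more than sampling noise (chi-square per degree of freedom 7.95 to 28.6), so no library was treated as a copy of another.

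The analysis used edgeR 4.0.16 in R 4.3.3: filterByExpr, TMM scaling and the quasi-likelihood test in one model of the 4 groups, for NXP800 against DMSO at 6 h, at 24 h and the difference of these responses, with Benjamini-Hochberg adjustment over 15979 genes. CPM are counts per 1000000 TMM-scaled counts. Fold changes are NXP800 over DMSO. Tests were run on simulated counts with the same spread for every gene and no tie between same-numbered libraries. That check included the block fit, but it does not cover genes of unequal spread or a block on libraries that deviate together. Same-numbered NXP800 and DMSO libraries deviated from their groups with r of 0.159 to 0.329 across genes, against at most 0.058 for different numbers. That contrast is partly built in, since deviations from a group mean cancel out within each group. The replicate numbers in the labels are the only ground for the block.

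The members and lists were chosen with earlier results of these data known. Genes named are the members, the 3 largest rises and falls among passing genes of each list at each time (mean log2 CPM of at least 1), some fixed regulators, targets and iron genes, and nearest profiles. *BEST1*, *PGD*, *TKT*, *TALDO1* and *IDH1* were named after their values were seen. *HNRNPA3*, *AGPS* and *MLYCD* were named because they overlap members. An item among the other NRF2 targets is counted in its list but is not reported here. Alternatives were library size only, DESeq2's size factors and Wald test (DESeq2 1.42.0), no filter, the libraries of a time point only, the replicate block, added pseudogene counts and each library left out. The comparison of replicate 1 with the other replicates at 24 h, and leaving out replicate 1 of both 24 h groups, were added after seeing the data.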

Additional observations from a re-analysis of the deposited data

Results flagged for a closer look

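For 3 of the 9 genes the response to NXP800 differed between 6 h and 24 h by a test of the difference itself (the quasi-likelihood test of edgeR, Benjamini-Hochberg adjusted). The log2 response of *NFE2L2* changed by -0.34 from 6 h to 24 h (adjusted p = 0.0299), that of *HMOX1* by 0.65 (adjusted p = 0.0164) and that of *FTL* by 0.72 (adjusted p = 0.0286). *NFE2L2* rose at both times and less at 24 h, *HMOX1* rose at both times and more at 24 h, and *FTL* was at -0.17 at 6 h and rose at 24 h. All 3 differences passed with the replicate block. That of *NFE2L2* was lost in 6 of 12 fits with 1 library left out and with library size only (adjusted p = 0.0749), that of *FTL* in 7 of 12 and by DESeq2's Wald test (adjusted p = 0.0771), and that of *HMOX1* without replicate 1 of both 24 h groups (adjusted p = 0.0746).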

How the results depend on the processing

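Counting error was small except for *HMOX1*, *SLC40A1* and other low genes, and the spread between 3 libraries set the precision. The calls at 6 h and 24 h of *NFE2L2* and *HMOX1* held under every alternative run. DESeq2's size factors changed no call of the 9 genes, and added pseudogene counts none of *FTH1* or *FTL*. The latter could hardly do so, with at most 6 counts in a library for *FTH1P3* and 0 for *FTLP10*. Read pairs aligned to several places were not counted on genes, so that check does not cover them. Log2 values that changed follow. With library size only, *TXNRD1* at 24 h passed (0.43), *ME1* at 24 h turned to 0.046, the difference of the responses (24 h minus 6 h) of *NFE2L2* no longer passed (-0.27), and that difference had 2463 genes higher and 1670 lower, against 1924 and 2205, with 5327 and 3747 at 24 h, against 4387 and 4566. Without the filter on low counts these passed: *NQO1* at 6 h (-0.32) and 24 h (-0.38), *SRXN1* at 6 h (0.26), *TXNRD1* (0.36) and *FTH1* (0.20) at 24 h, and the differences of *TXNRD1* (-0.47), *OSGIN1* (0.70) and *FTH1* (0.32). Members passing were then 8 at 24 h and 6 in the difference, where 9114 and 4226 of all genes passed. The log2 values of the newly passing genes stayed close to those with the filter, while their standard errors were smaller. For *NQO1* at 6 h the standard error was 0.077 against 0.23 with the filter, and for *FTH1* at 24 h 0.078 against 0.16. With the libraries of 1 time point only, *NQO1* (-0.29) and *SRXN1* (0.29) passed at 6 h and *SRXN1* at 24 h did not (0.42).

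With the replicate block, *NQO1* (-0.32), *SRXN1* (0.25) and *FTL* (-0.17) passed at 6 h, *NQO1* (-0.43), *TXNRD1* (0.32) and *FTH1* (0.16) at 24 h, and the differences of *TXNRD1* (-0.52), *OSGIN1* (0.68) and *FTH1* (0.29). The block raised members passing from 4 to 7, 5 to 8 and 3 to 6 (6 h, 24 h, difference), other NRF2 targets at 6 h from 16 to 25 and genes in the difference from 4129 to 6284. It changed no other call of a member. By DESeq2's Wald test *OSGIN1* at 6 h (0.82), *SRXN1* at 24 h (0.41) and the difference of *FTL* (0.72) did not pass. Without replicate 1 of both 24 h groups *NQO1* passed at 24 h (-0.50), the difference of *TXNRD1* passed (-0.61), and those of *NFE2L2* (-0.29) and *HMOX1* (0.55) did not.

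With 1 library left out at a time, values ranged as follows. At 6 h *OSGIN1* ran from 0.65 to 0.93, *ME1* from -0.011 to 0.081 and the log2 ratio of *FTH1* to *FTL* from -0.013 to 0.074. At 24 h *FTL* ran from 0.36 to 0.80, *SRXN1* from 0.14 to 0.53, *TXNRD1* from 0.070 to 0.50, *NQO1* from -0.81 to -0.090, *FTH1* from -0.069 to 0.37 and *ME1* from -0.14 to 0.018. The differences ran from -0.40 to -0.26 for *NFE2L2*, 0.53 to 0.97 for *FTL*, -0.49 to 0.23 for *NQO1*, -0.76 to -0.33 for *TXNRD1*, -0.12 to 0.28 for *SRXN1* and 0.27 to 1.08 for *OSGIN1*, and 1 to 3 members passed in the difference. Where a value changed, the cause was not tested.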
